A study of Rattus norvegicus with 123 samples.

Results

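Livers of rats given methapyrilene at 100 mg/kg daily for 14 d were compared with livers of rats given the vehicle for the same time. Methapyrilene, dosed as its hydrochloride, is an antihistamine that was withdrawn from use after it was found to cause liver tumours in rats. It is oxidised by cytochrome P450 enzymes of the liver, and in rats the injury falls mainly on the periportal hepatocytes, whose mitochondria are affected early. Among rat liver carcinogens it is usually classed as nongenotoxic.

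The members were the 3 arrays of the methapyrilene group, MPY_M_100ppm_14d, and the 3 arrays of its vehicle group, CMC_C_14d, taken by their group labels from 123 arrays, of which the labels pass 112 for quality. Other groups used beside them were methapyrilene at 30 mg/kg for 14 d and for 28 d, piperonyl butoxide at 600 mg/kg for 14 d (3 arrays each), and Wy-14643 at 60 mg/kg for 28 d (5 arrays). Piperonyl butoxide, added to insecticides to strengthen them, blocks cytochrome P450 enzymes, and Wy-14643 is an agonist of PPAR alpha that makes peroxisomes multiply in rat liver. Their vehicle groups were CMC_C_14d, CMC_C_28d (3 arrays) and CMC_B_28d (5 arrays), and CMC_A_14d (5 arrays) was a vehicle group of a separate set. All of these received carboxymethylcellulose or the compound by stomach tube. From the cyproterone acetate study, groups of 4 arrays given the compound at 100 mg/kg for 14 or 28 d (CPA_F and CPA_M) and their corn oil groups (CO_D_F and CO_D) were used for single values and 1 contrast. The labels name no transgene or mutation in any of these groups. The labels describe adult male Han Wistar rats that were randomised to groups and killed on the day after the last dose, and they name more rats per dose group than there were arrays here, without saying how the 3 were chosen. Group names say ppm where the dose label says mg/kg, and the dose label is used here. Changes or call shares are also given for the remaining treated groups, of 3 to 5 arrays each. Phenobarbital was dosed at 80 mg/kg for 14, 28 or 90 d, with the CMC_A group of the same day as vehicle. At 600 mg/kg for 28 d, 1,4-dichlorobenzene had the corn oil group CO_B_28d and piperonyl butoxide had CMC_C_28d. Rosiglitazone (10 mg/kg) and pioglitazone (16 or 63 mg/kg), each for 28 d, shared the water group H2O_E_28d.

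Each array measured total RNA of 1 frozen liver piece on the Affymetrix RaGene 2.0 ST design. The values are log2 expression values from RMA, so that a difference of 1 is a 2-fold change. Each row is an Ensembl transcript, and none of the 22470 tested could be paired with a gene symbol from the gene table at hand. The marker genes of hepatocytes and of other liver cells, and the pathway lists, could therefore not be examined, and the label of the tissue was not checked against its markers. Transcripts are described by the size of their change, their level and their behaviour across groups, and the 4 that lead in size are given by identifier. In whole liver, fewer cells of a type and less RNA per cell cannot be told apart.

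The 3 methapyrilene arrays resembled each other and stood apart from every vehicle array. The root mean square difference between 2 arrays over all transcripts was 0.28 to 0.29 log2 units within the methapyrilene group and 0.31 to 0.33 within the vehicle group. Between the groups it was 0.82 to 0.84. The median SD of a transcript within the methapyrilene group was 0.13, the smallest of the 29 groups of the series, and it was 0.15 in the vehicle group. Distances from the methapyrilene 100 mg/kg arrays to those at 30 mg/kg were 0.67 to 0.73, and to the piperonyl butoxide arrays 0.79 to 0.81. The response at 100 mg/kg was thus carried by all 3 animals and not by a single liver.

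The distribution of values on the arrays also differed. Median log2 values were 5.64, 5.64 and 5.63 on the methapyrilene arrays, against 5.51, 5.51 and 5.49 on the vehicle arrays. The interquartile range was 3.69 ± 0.0047 (SD, n = 3) with methapyrilene and 3.29 ± 0.02 (n = 3) with vehicle. In both measures the groups did not overlap, and an exact two-sided permutation test gave p = 0.1, the smallest that 3 against 3 arrays allow. Transcripts with a value below 4 numbered 6405 to 6431 on the methapyrilene arrays and 5518 to 5580 on the vehicle arrays. Those above 10 numbered 836 to 853 with methapyrilene and 913 to 942 with vehicle. By contrast, the 100 brightest transcripts held 15.6% of the summed linear signal with methapyrilene and 15.7% with vehicle (exact permutation p = 0.8). The labels give an RNA integrity number of 9 to 10 for every sample, so that no difference in RNA quality is recorded between the groups. What part the wider spread of values has in the calls below was not tested beyond the other scalings given with them.

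Methapyrilene at 100 mg/kg changed the liver transcriptome widely, in both directions and by large amounts. In all, 10809 of 22470 (48.1%) passed an adjusted p of 0.05 in limma, 5582 higher with methapyrilene (24.8%) and 5227 lower (23.3%). The median change of all transcripts was -0.09. With 3 arrays a group, the 95% interval of a typical transcript reached 0.33 log2 units to each side, and the median size of a called change was 0.65. The 2 vehicle groups of 14 d, CMC_C_14d and CMC_A_14d, differed in 199 transcripts (0.886%), and in 51 to 111 when any one of the arrays CMC_C_14d replicate 1, 2 or 3 or CMC_A_14d replicate 5 was left out. The balance of directions depended on the scaling. Centring each array on its median moved the median change by -0.13, to a median of -0.22, and the share of calls that were higher with methapyrilene then was 35.8%, against 51.6% in the deposited values.

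The largest changes were more often losses than gains. At least 2-fold changes among the calls numbered 2688 (12%), 1579 higher (7.03%) and 1109 lower (4.94%). At 4-fold or more the counts were 287 higher and 328 lower, at 8-fold or more 93 and 143, at 16-fold or more 35 and 57, and at 32-fold or more 11 and 21. At 2-fold the excess of rises did not hold after centring on the medians, with 1227 higher and 1375 lower, although it did after quantile normalization, with 1409 and 1170. At 4-fold or more falls prevailed under both, with 240 higher and 371 lower after centring and 266 and 349 after quantile normalization. In 1573 of the 1579 rises and 1106 of the 1109 falls the 3 methapyrilene values and the 3 vehicle values did not overlap. These sets were chosen for a large change, and over all transcripts a call without overlap was seen in 46.2%, so that nothing is read from their separation. The median change of the 1579 rises was 1.41, 1.39 and 1.39 in the 3 methapyrilene animals against the vehicle mean. For the 1109 falls it was -1.54, -1.49 and -1.57. The sets were chosen by the mean of these same 3 animals, so the medians are a description.

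The transcript with the largest rise was ENSRNOT00000013729, which was close to the floor of the array in the vehicle livers of CMC_C_14d. Its log2 values were 10.25, 9.56 and 9.61 with methapyrilene at 100 mg/kg, against 3.66, 1.90 and 2.08 with vehicle. Every methapyrilene array was far above every vehicle array, and the vehicle arrays spread more widely (SD 0.97) than the methapyrilene arrays (SD 0.38). The change was 7.26 (SE 0.77, limma adjusted p = 8.73e-14). The table gives no detection call against background, so no exact fold is drawn from differences that rest on values this low, here or below. In rats given 30 mg/kg for 14 d its values were 2.86, 1.95 and 3.36, within the range of the vehicle arrays. After 28 d of 30 mg/kg they were 2.64, 5.98 and 4.26, against 1.95, 3.38 and 2.96 in CMC_C_28d, a change of 1.53 that did not pass the test (adjusted p = 0.224). The direct difference between 100 and 30 mg/kg at 14 d was 7.08 (SE 0.77, adjusted p = 4.03e-13). With Wy-14643 its values ran from 10.20 to 11.92 (median 10.94), against 1.31 to 3.99 in CMC_B_28d (median 2.57). In the 15 other comparisons of a treated group with its vehicle the transcript did not pass the test, with changes between -0.92 and 1.53. It was not low in every vehicle liver: in the corn oil group CO_B_28d its values ran from 1.53 to 8.11 (median 2.40, SD 3.03, n = 4).

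ENSRNOT00000037712 had the next largest rise, and it passed the test at 30 mg/kg too. Its values were 12.79, 12.64 and 12.98 with 100 mg/kg, against 6.14, 6.04 and 5.67 with vehicle, a change of 6.85 (SE 0.57, adjusted p = 9.49e-19). With 30 mg/kg for 14 d they were 8.60, 8.48 and 10.56, between the vehicle arrays and the 100 mg/kg arrays without overlap with either. Both steps passed the test: 30 mg/kg was above vehicle by 3.27 (adjusted p = 7.43e-05), and 100 mg/kg was above 30 mg/kg by 3.59 (adjusted p = 1.38e-07). After 28 d of 30 mg/kg the values were 7.25, 10.51 and 10.75, against 6.40, 5.81 and 6.84 in the vehicle group of that day, a rise of 3.15 (adjusted p = 4.15e-05). One of these 3 animals lay far below the other two. With Wy-14643 the transcript fell by 1.17 (SE 0.44, adjusted p = 0.0402), and with piperonyl butoxide its change was -0.75 at 14 d (adjusted p = 0.670) and -1.66 at 28 d (adjusted p = 0.0445). With 1,4-dichlorobenzene it was -3.08 (adjusted p = 3.63e-06). The groups CPA_F_100ppm_14d and CPA_F_100ppm_28d, given cyproterone acetate, a steroidal antiandrogen, had rises of 5.94 and 5.07 in it, whereas the change in CPA_M_100ppm_14d was -1.28 (adjusted p = 0.0860).

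The largest fall was that of ENSRNOT00000017310, whose signal was among the 100 brightest of the array in vehicle livers. It had values of 3.95, 3.03 and 5.27 with methapyrilene at 100 mg/kg, against 12.47, 12.49 and 12.61 with vehicle. The 3 methapyrilene livers were all far below every vehicle liver. Their values, at a dim signal, differed widely (SD 1.13), while the vehicle values, at a bright one, were nearly equal (SD 0.08). The change was -8.44 (SE 0.37, limma adjusted p = 1.78e-36). That SE pools the spread of the transcript over all groups, and in a limma fit of the 6 arrays alone it was 0.49 (adjusted p = 1.51e-05). Livers at 30 mg/kg for 14 d had 12.06, 11.86 and 12.03, below every vehicle value, but the change of -0.54 did not pass the test (adjusted p = 0.539). That test used the same pooled SE, while the SD was 0.11 at 30 mg/kg and 0.08 with vehicle. The missing call is thus no sign that the transcript was unchanged. After 28 d of 30 mg/kg the livers had 11.73, 10.96 and 11.65, against 12.59, 12.53 and 12.54 in CMC_C_28d, a change of -1.11 (adjusted p = 0.0394). The direct difference between 100 and 30 mg/kg at 14 d was -7.90 (SE 0.37, adjusted p = 3.03e-34), nearly as large as that between 100 mg/kg and vehicle.

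ENSRNOT00000068043 followed with 4.88, 3.34 and 6.61 at 100 mg/kg, against 13.03, 13.16 and 13.08 with vehicle. Here too the vehicle values were tightly grouped at a bright signal. The methapyrilene values, at a dim one, were spread over more than 3 log2 units. The change was -8.15 (SE 0.54, adjusted p = 2.73e-24), and the difference from 30 mg/kg was -7.78 (SE 0.54, adjusted p = 6.34e-23). In a limma fit of the 6 vehicle and 100 mg/kg arrays alone the SE of the change was 0.70 (adjusted p = 8.59e-05). Livers at 30 mg/kg had values of 12.85, 12.67 and 12.66 at 14 d, with a change of -0.36 that did not pass the test (adjusted p = 0.831). At 28 d they were 12.63, 12.04 and 12.29, against 13.13, 12.98 and 13.02 in CMC_C_28d, a change of -0.72 that did not pass either (adjusted p = 0.467). On both days they lay below every vehicle value. The SE of 0.54 pools the spread over all groups, while at 14 d the SD was 0.11 at 30 mg/kg and 0.07 with vehicle. The missing calls are thus no sign that the transcript was unchanged at 30 mg/kg.

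Both of these transcripts were also low in the corn oil F groups of the cyproterone acetate study. The labels do not spell out F and M and describe male animals throughout, so the groups are called as named. ENSRNOT00000017310 averaged 3.75 ± 0.82 in the corn oil group CO_D_F_14d and 12.44 ± 0.05 in CO_D_14d (SD, n = 4 each). ENSRNOT00000068043 averaged 1.85 ± 0.27 in CO_D_F_14d and 12.73 ± 0.11 in CO_D_14d. Beside these, the means with methapyrilene at 100 mg/kg were 4.08 ± 1.13 and 4.94 ± 1.64 (n = 3 each), and the F and methapyrilene groups were not tested against each other. With Wy-14643 the change of ENSRNOT00000017310 was -2.51 (adjusted p = 4.81e-12) and that of ENSRNOT00000068043 was -1.47 (adjusted p = 0.00458). In the CPA_M groups, given cyproterone acetate, ENSRNOT00000017310 changed by -3.02 at 14 d and -1.70 at 28 d, and ENSRNOT00000068043 by -1.47 and -3.04, all past the test. In the CPA_F groups, whose corn oil groups were low in both, ENSRNOT00000017310 rose by 1.18 at 14 d (0.70 at 28 d, adjusted p = 0.139) and ENSRNOT00000068043 by 2.49 and 2.13. ENSRNOT00000068043 also fell by 2.05 on the log2 scale with phenobarbital at 14 d and by 1.78 with 1,4-dichlorobenzene.

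**Figure D1:**
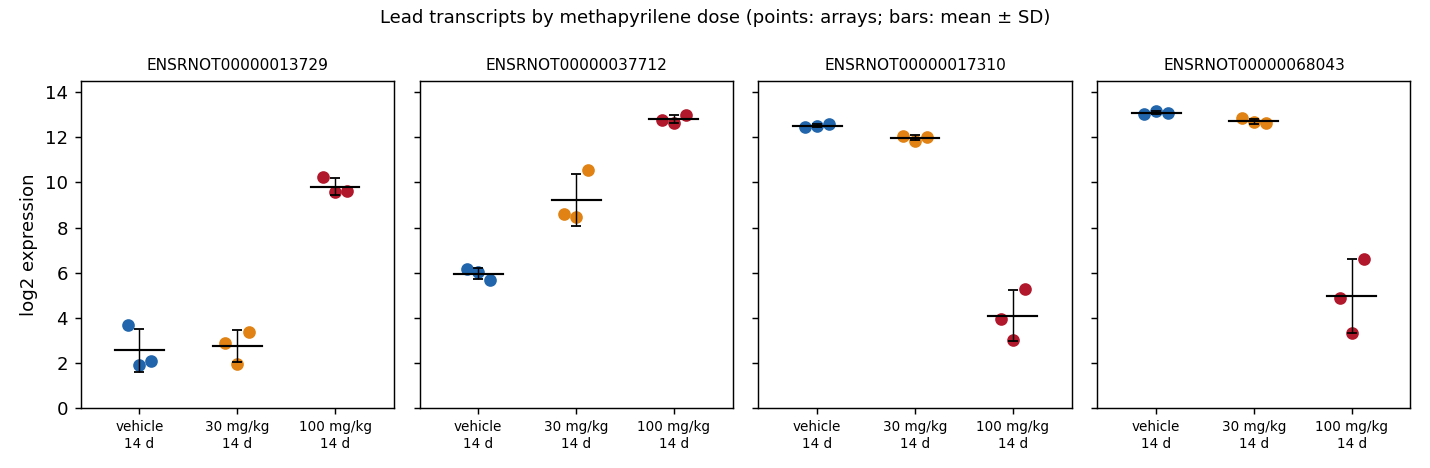
Log2 expression (vertical axis) of the 4 leading transcripts (first 2 panels, rises; last 2, falls) by group at 14 d: vehicle, methapyrilene 30 mg/kg and methapyrilene 100 mg/kg. Points are arrays, 1 animal each, and bars show the mean ± SD (n = 3). ENSRNOT00000037712 stands at 9.22 on average at 30 mg/kg, between vehicle and 100 mg/kg, while the other 3 stay within 0.6 log2 units of vehicle at that dose.

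The 20 largest rises were transcripts that were dim in vehicle livers. Their changes ran from 4.41 to 7.26. A rise of that size leaves little room for a bright vehicle value on this scale, so the ranking itself favours dim ones. The vehicle means lay between 2.55 and 6.92, with 19 of 20 below 6, and the methapyrilene means between 8.14 and 12.80. Levels of different probe sets are not on a common scale of abundance, so these ranges describe the array's signal only. For all 20 the direct difference between 100 and 30 mg/kg passed the test, with a median of 3.56. Of all transcripts, 20.8% were called higher in that comparison. The 3 arrays at 100 mg/kg that chose the 20 also enter the differences from 30 mg/kg and from piperonyl butoxide, so both are a description. Some had passed the test at 30 mg/kg and others had not, and 6 of the 20 had a change under 0.5 there at 14 d. The rise of rank 10 is one of these: its values were 10.82, 10.71 and 10.38 with 100 mg/kg, against 5.43, 5.52 and 5.62 with vehicle, a change of 5.11 (SE 0.15, adjusted p = 1.81e-49). With 30 mg/kg its change was 0.07 at 14 d (adjusted p = 0.898) and 0.34 at 28 d (adjusted p = 0.150). The rise of rank 14 was high at both doses, with values of 10.74, 10.62 and 10.79 at 100 mg/kg, against 6.62, 5.52 and 5.86 with vehicle, a change of 4.72 (SE 0.43, adjusted p = 9.75e-17). With 30 mg/kg it was 3.66 at 14 d (adjusted p = 3.11e-09) and 3.91 at 28 d (adjusted p = 7.24e-11), and the step to 100 mg/kg was 1.06 (SE 0.43, adjusted p = 0.0441). This transcript was also the only one of the 20 without a call between methapyrilene at 100 mg/kg and piperonyl butoxide, at a difference of 0.95 (SE 0.43, adjusted p = 0.0608).

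The same rises differed in their values with Wy-14643. The rise of rank 6 had 12.12, 11.28 and 10.99 with methapyrilene at 100 mg/kg, against 5.28, 5.68 and 5.75 with vehicle (change 5.89, SE 0.43, adjusted p = 6.79e-22). Its change was 3.68 with 30 mg/kg for 28 d (adjusted p = 4.27e-10) and -0.77 with Wy-14643 (SE 0.33, adjusted p = 0.0821). The rise of rank 13, with 9.79, 9.61 and 9.52 against 4.54, 4.51 and 5.12 in vehicle livers (change 4.92, SE 0.26, adjusted p = 2.25e-30), had similar changes of 2.85 with 30 mg/kg for 28 d and 2.57 with Wy-14643 (both past the test). Rank 3 had neither: it had 9.78, 10.27 and 11.04 at 100 mg/kg, against 4.16, 3.54 and 3.53 with vehicle, but its changes of 0.43 with 30 mg/kg for 28 d and 0.47 with Wy-14643 did not pass the test (adjusted p = 0.352 and 0.0826).

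The 20 largest falls were mostly transcripts with a bright signal in vehicle livers. Their changes ran from -5.06 to -8.44. A fall of that size has to start from a bright vehicle value on this scale, so the ranking itself largely sets this. Vehicle means lay between 8.83 and 13.19, 17 of them above 10, and methapyrilene means between 3.23 and 7.30. Of the 20, 6 belonged to the 100 brightest transcripts of the array. The methapyrilene values differed more from each other than the vehicle values in 18 of the 20, with a median SD of 0.60 with methapyrilene and 0.13 with vehicle. The SE and adjusted p rest on 1 spread per transcript pooled over all groups, so they do not reflect this wider spread. It was seen at a dim signal with methapyrilene and a bright one with vehicle, and spread at equal signal was not compared. Over all transcripts the median SD was 0.13 with methapyrilene and 0.15 with vehicle. Every one of the 20 was lower at 100 mg/kg than at 30 mg/kg and lower than with piperonyl butoxide. The median difference between the doses was -5.15. Of all transcripts, 15.5% were called lower than at 30 mg/kg and 22.1% lower than with piperonyl butoxide. The arrays at 100 mg/kg that chose the 20 falls also enter both differences, so both are a description. At 30 mg/kg for 14 d, 10 of the 20 had a change smaller than 0.5 in size. The fall of rank 7 shows how sharp the difference between doses could be, with values of 7.23, 6.23 and 6.30 at 100 mg/kg, against 12.90, 12.98 and 12.98 with vehicle (change -6.37, SE 0.10, adjusted p = 4.24e-70). Its SD was 0.56 with methapyrilene at 100 mg/kg and 0.05 with vehicle. Its change with 30 mg/kg for 14 d was -0.17 (adjusted p = 0.478), and at 28 d -0.27 (adjusted p = 0.0752).

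**Figure D2:**
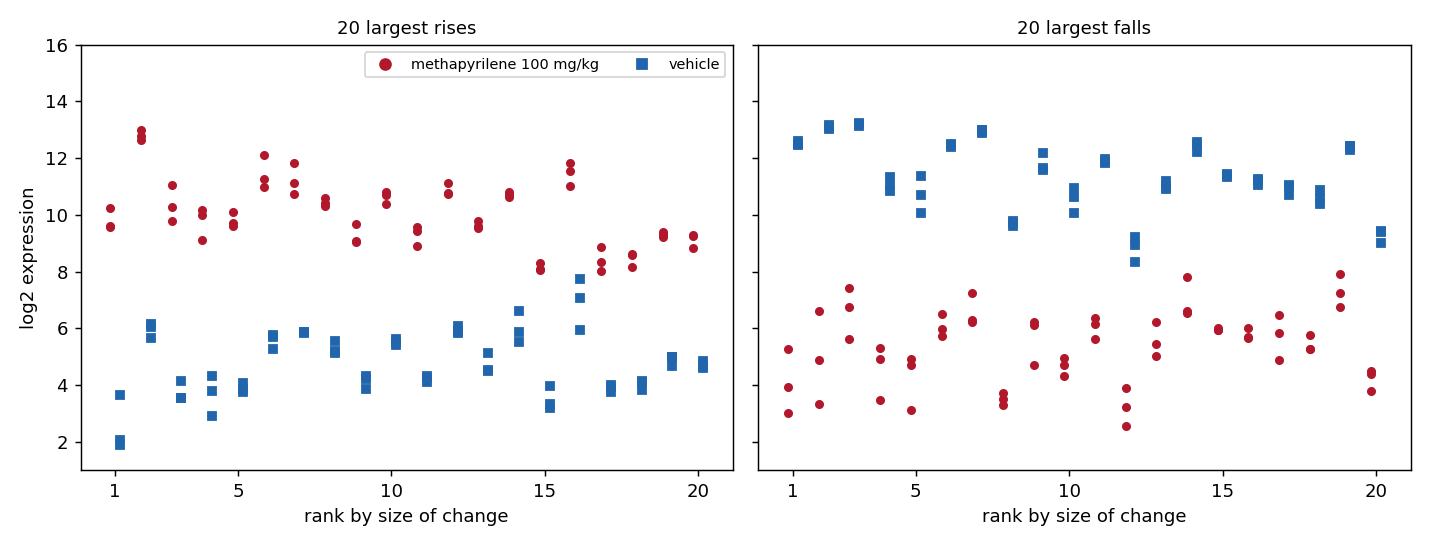
Log2 expression (vertical axis) of the 20 largest rises and the 20 largest falls, by rank (horizontal axis), with methapyrilene 100 mg/kg as red circles and vehicle as blue squares, 3 arrays each. No methapyrilene value overlaps a vehicle value, since the ranking required this. Among the falls the methapyrilene values, which are dimmer, scatter more than the vehicle values, with a median SD of 0.60 and 0.13.

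Few transcripts were below 4 throughout one group and above 7 throughout the other. These bounds are signal values and not detection calls. Only 3 were below 4 in all 3 vehicle livers and above 7 in all 3 methapyrilene livers, with changes of 3.54 to 7.26, and 6 showed the reverse, with changes of -3.96 to -6.19. In the 30 mg/kg livers of 14 d, none of the 3 was above 7 in all livers and 1 was below 4 in all, while none of the 6 was below 4 in all livers and 2 were above 7 in all. The choice of these transcripts fixes their difference from vehicle, so no test of it is given.

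The dose step from 30 to 100 mg/kg was itself wide. The direct comparison at 14 d, which uses no vehicle array, called 8157 transcripts (36.3%), 4681 higher at 100 mg/kg (20.8%) and 3476 lower (15.5%). Of these, 1765 were at least 2-fold (7.85%), 965 higher (4.29%) and 800 lower (3.56%). With arrays centred on their medians 40.1% of the calls were higher, against 57.4% as deposited. Against vehicle, 30 mg/kg had 760 calls at 14 d (3.38%), 519 higher (2.31%) and 241 lower (1.07%). That count fell to between 252 and 486 without CMC_C_14d replicate 1 (428) or 2 (409) or without MPY_M_30ppm_14d replicate 2 (486) or 3 (252). Of the 1579 transcripts at least 2-fold higher at 100 mg/kg than with vehicle, 1498 (94.9%) were also higher than at 30 mg/kg. Of the 1109 at least 2-fold lower, 1011 (91.2%) were also lower than at 30 mg/kg. Since these sets were chosen by the 100 mg/kg values that the direct comparison uses too, the shares are a description.

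The response also stood apart from that to piperonyl butoxide given in the same set for the same time. The direct comparison called 10262 transcripts (45.7%), 5307 higher with methapyrilene at 100 mg/kg (23.6%) and 4955 lower (22.1%). With arrays centred on their medians 33.9% of the calls were higher, against 51.7% as deposited. Piperonyl butoxide had 428 calls against the shared vehicle arrays (1.9%), and 197 to 277 when CMC_C_14d replicate 2 (197) or 3 (245) or PBO_M_600ppm_14d replicate 1 (277) or 3 (262) was left out. Of the 2-fold sets, 1536 rises (97.3%) and 1046 falls (94.3%) also separated methapyrilene at 100 mg/kg from piperonyl butoxide. Both direct differences, from 30 mg/kg and from piperonyl butoxide, passed for 6692 of the 10809 called transcripts (61.9%), and for 2469 of the 2688 with at least a 2-fold change (91.9%), beside 6994 of all 22470 (31.1%). All of these comparisons share the 3 methapyrilene arrays that chose the sets, so the shares are a description.

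Methapyrilene at 30 mg/kg for 28 d had vehicle animals of its own and changed transcripts mostly in the same directions. It had 2120 calls (9.43%), 1207 higher (5.37%) and 913 lower (4.06%). The number was 808 without MPY_M_30ppm_28d replicate 2, 1184 without its replicate 3 and 1385 without CMC_C_28d replicate 3. Of the 2120, 1782 were called in the same direction at 100 mg/kg for 14 d, which is 84.1% of that list and 16.5% of the longer list at 100 mg/kg. In the opposite direction there were 16. Among the 1579 transcripts at least 2-fold higher at 100 mg/kg, 653 (41.4%) were called higher at 30 mg/kg for 28 d, where 5.37% of all transcripts were, and 1 was called lower. Their median change at the lower dose was 0.41, with 92.3% above 0, against 44.8% above 0 for all transcripts. For the 1109 falls the corresponding numbers were 443 (39.9%, against 4.06% of all transcripts) called lower, 2 called higher, and a median change of -0.36. The change at 30 mg/kg was larger than that at 100 mg/kg in 13 of the 1579 and 8 of the 1109. Dose and day both differ between these groups, and the 2 comparisons were not tested against each other.

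Wy-14643 shared part of the response. Its 5466 calls (24.3%) included 2725 whose direction matched that at 100 mg/kg of methapyrilene, 49.9% of the Wy-14643 list and 25.2% of the methapyrilene list, and 904 in the opposite direction. Of all transcripts, 24.8% were called higher and 23.3% lower at 100 mg/kg. The share of 49.9% was not particular to Wy-14643. For the other compounds with vehicle animals of their own, it ran from 25.7% (phenobarbital for 14 d, 323 calls) to 55.8% (phenobarbital for 90 d, 446 calls). The 1109 falls of at least 2-fold with methapyrilene were called lower with Wy-14643 in 613 cases (55.3%, against 12.5% of all transcripts) and higher in 95. The 1579 rises were called higher in 582 cases (36.9%, against 11.9% of all transcripts) and lower in 109. Among the 20 largest falls 14 were also called lower with Wy-14643, and among the 20 largest rises 8 were called higher and 1 lower. The fall of rank 9 was large in both: it had 6.12, 4.72 and 6.23 with methapyrilene, against 11.66, 12.17 and 11.57 with vehicle, and its change with Wy-14643 was -5.07 (SE 0.39, adjusted p = 4.18e-20). The fall of rank 14, in contrast, was -5.44 with methapyrilene and 0.31 with Wy-14643 (adjusted p = 0.220).

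**Figure D3:**
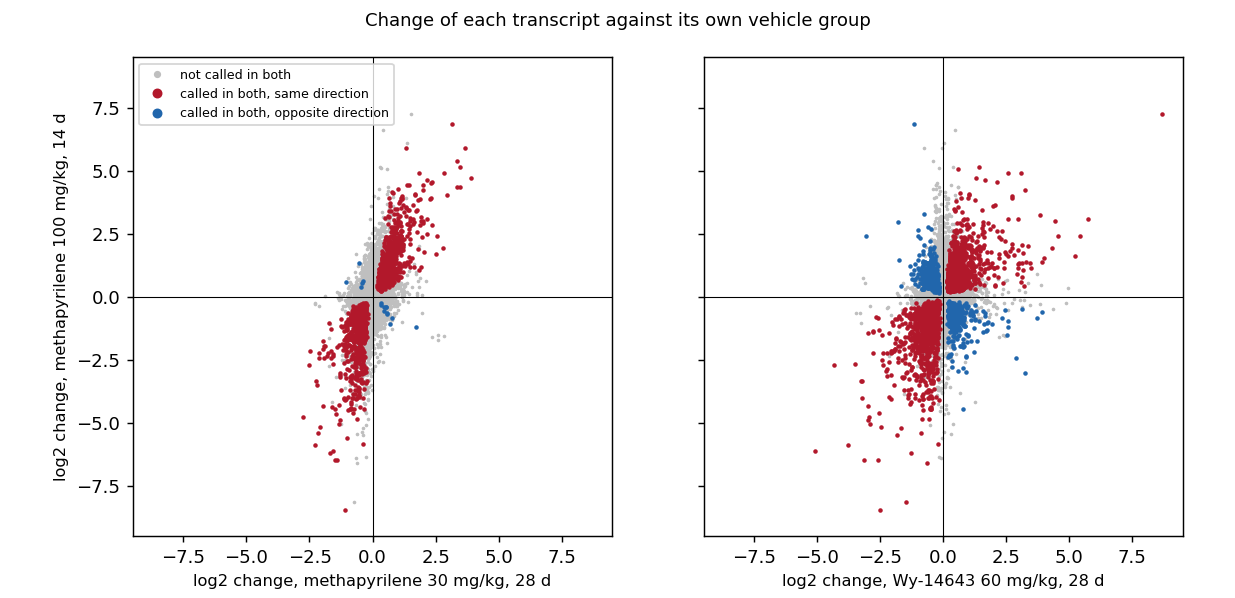
Log2 change of each transcript with methapyrilene 100 mg/kg for 14 d (vertical axes) against its change with methapyrilene 30 mg/kg for 28 d (left) and with Wy-14643 60 mg/kg for 28 d (right), each against separate vehicle animals. Red points are called in both in the same direction (1782 left, 2725 right), blue points in opposite directions (16 left, 904 right), and grey points are not called in both.

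The corn oil livers of the F group gave a further side view. CO_D_F_14d differed from CO_D_14d in 1779 transcripts (7.92%), 870 higher in F (3.87%) and 909 lower (4.05%). This contrast was added after the values were seen, because the 2 leading falls were low in F livers. Of the 1109 transcripts at least 2-fold lower with methapyrilene, 234 (21.1%) were also lower in CO_D_F_14d than in CO_D_14d and 107 were higher. Of the 1579 rises, 143 (9.06%) were higher in F livers and 72 lower. Among the 20 largest falls 15 were lower in F livers and 2 higher, and among the 20 largest rises 3 were higher and none lower.

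Calls were more frequent at higher signal. Transcripts were ordered by their mean in CMC_A_14d, whose arrays are in neither group. They were cut into 10 bins of 2247. The share called was 11.8% in the dimmest bin and 75.8% in the brightest. In the 5 brighter bins together there were 4255 higher and 2761 lower calls as deposited. That excess of rises depended on the scaling. With bin 10 the brightest, bin 7 had 948 higher and 344 lower as deposited, 754 and 511 after centring, and 662 and 595 after quantile normalization. Bin 9 had 876 and 590 as deposited, 673 and 760 after centring, and 733 and 734 after quantile normalization. In the 5 dimmer bins there were 1327 higher and 2466 lower as deposited, but only 784 lower after quantile normalization and 4327 lower after centring on the medians. In the dimmest bin the direction itself flipped: 58 were higher and 208 lower as deposited, 45 and 614 after centring, and 104 and 35 after quantile normalization. In the brightest bin lower calls prevailed under all 3 scalings, with 684 higher and 1019 lower as deposited, 542 and 1148 after centring, and 759 and 974 after quantile normalization. Falls of at least 2-fold were concentrated there too, with 565 in the brightest bin as deposited, against 151 rises, while the 5 dimmer bins held 109 such falls and 567 such rises. In those bins the falls of at least 2-fold numbered 205 after centring and 51 after quantile normalization, and rises outnumbered them there under all 3 scalings. The levels of those bins ran from 1.34 to 5.52 as deposited. A dim signal leaves limited room for a fall, so the scale itself favours rises there, and other scalings do not remove that.

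The 100 transcripts with the brightest signal fell more often than they rose. With methapyrilene at 100 mg/kg 15 were higher and 61 lower, 37 of the latter at least 2-fold. Of all transcripts 24.8% were higher and 23.3% lower, 4.94% lower by at least 2-fold. The median change of the 100 was -0.40, against -0.09 for all transcripts. Counts were 11 and 68 after centring and 16 and 60 after quantile normalization. The direct comparison with 30 mg/kg gave 18 higher and 63 lower, against 20.8% and 15.5% of all transcripts. That with piperonyl butoxide gave 19 and 61, against 23.6% and 22.1%. Against vehicle, 30 mg/kg for 14 d had 1 call among them, a rise, where 3.38% of all transcripts were called. At 28 d it had 6 rises and 9 falls, against 5.37% and 4.06% of all transcripts. Wy-14643 had 7 rises and 50 falls among them, against 11.9% and 12.5% of all transcripts, with a median change of -0.16 and 3 falls of at least 2-fold.

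**Figure D4:**
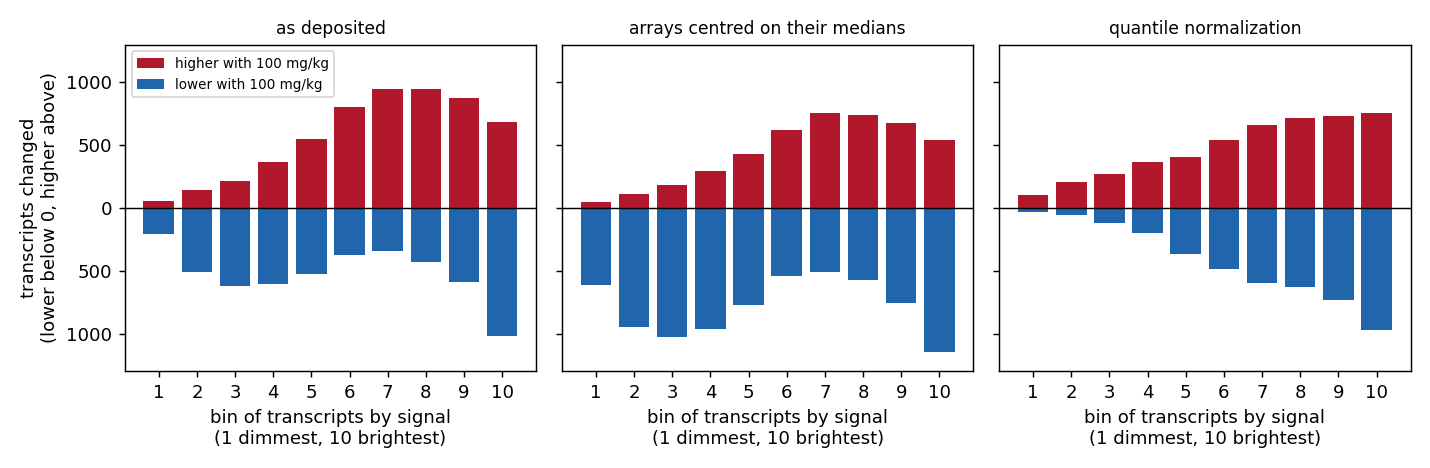
Number of transcripts changed (vertical axis, higher with methapyrilene 100 mg/kg above 0 and lower below 0) in each of 10 equal bins of transcripts by signal in CMC_A_14d (horizontal axis, 1 dimmest to 10 brightest), for the deposited values, for arrays centred on their medians and after quantile normalization. In the dimmest bin the prevailing direction flips with the scaling (58 higher and 208 lower as deposited, 104 and 35 after quantile normalization), whereas lower calls prevail in the brightest bin in all 3 panels.

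Part of the response was called in no other comparison of a treated group with its vehicle. Of the 10809 transcripts, 4256 passed in none of the other 16 comparisons, 1715 higher and 2541 lower, with a median size of change of 0.56. How many of all 22470 transcripts passed in none of the 16 was not counted, so the 4256 have no share to be read against. Of the 4256, 2019 (47.4%) also differed from both 30 mg/kg and piperonyl butoxide directly, beside 31.1% of all transcripts. At least 2-fold changes among the 4256 numbered 360 higher and 121 lower, and 421 of these 481 passed both direct comparisons (87.5%). The methapyrilene arrays that chose these sets are also in the direct comparisons, so the shares are a description. The share of all transcripts called in the comparisons not described above was 13.7% and 15.2% in the F groups given cyproterone acetate for 14 and 28 d, and 9.95% and 11.3% in the groups named M. It was 10.6% with piperonyl butoxide for 28 d, 5.96% with 1,4-dichlorobenzene, and 1.44%, 1.23% and 1.98% with phenobarbital for 14, 28 and 90 d. The glitazones had 0.049% and 2.41% (pioglitazone at 16 and 63 mg/kg) and 0.681% (rosiglitazone). In the 14 comparisons with other vehicle animals, 5726 of the 10809 were called in the same direction in none and 17 in 10 or more. The same count over all transcripts was not made. The absence of a call elsewhere is not a test that the change differed there.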

How the data were processed

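The deposited table holds log2 expression values of 23110 transcript probe sets on 123 arrays. They were made by the authors with RMA and affy, per the submitters' processing notes, and versions, annotation and the arrays normalized together are not given in the sources used here. No further normalization was applied. Of the probe sets, 640 repeated another on every array and were left out.

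One mean per group was fitted over 112 arrays in 29 groups with limma 3.58.1 (R 4.3.3, Python 3.11.15 for figures), with 83 residual and 4.23 prior degrees of freedom, no trend, and Benjamini-Hochberg adjusted p under 0.05. The script was tested on simulated data. Groups came from the labels. One array stood for 1 animal, and the number of arrays limits the precision.

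The gene table (GRCr8, 47357 genes) holds no Ensembl identifiers and matched 0 probe sets, so 19 gene lists were not run and no sequence is shown. Named transcripts are the 2 largest rises and 2 largest falls that passed the test with no overlap between treated and vehicle arrays. Others are given by rank under the same rule. The groups, lists and rules were chosen with earlier results of these data known. The F and M contrast, the 2-fold counts, the 100 brightest transcripts and the shared calls were added after the data were examined. Alternatives covered array quality, the groups fitted, scaling, dim transcripts, the variance model, a replicate block, identical probe sets, the other vehicle group and leaving out each array.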

Additional observations from a re-analysis of the deposited data

Results flagged for a closer look

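Single arrays stood out in 3 groups for the transcript with the largest rise, ENSRNOT00000013729, by the gap to the nearest other array as a share of the group's range. In the vehicle group CMC_A_14d it was 3.34 on 1 array and 1.81 to 2.16 on the other 4 (a share of 0.772, against Dixon's critical value of 0.710 for 5 arrays). In the cyproterone acetate group CPA_F_100ppm_28d 1 array had 3.93 (0.837), and in the corn oil group CO_D_28d 1 array had 3.66 (0.897, critical value 0.829 for 4 arrays in both). These were 3 of 49 such checks, which covered the 4 named transcripts and 5 array summaries, and chance flags about 1 in 20. The methapyrilene 100 mg/kg values of 9.56 to 10.25 lie far above these 3 flagged values. The checks covered no group of 3 arrays and not every other group. The corn oil group CO_B_28d was not checked, and there the transcript reached 8.11 (median 2.40, n = 4).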

How the results depend on the processing

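All 4 named transcripts kept their direction and passed the test under every alternative that kept them, in the comparisons with vehicle, with 30 mg/kg and with piperonyl butoxide. They were chosen for the largest changes on these same arrays, which largely sets that outcome, so it is a description. ENSRNOT00000013729 was removed by the filter on dim transcripts and has no value there. The number changed against vehicle was 10809, with 11387 from the 6 arrays alone, 12257 with centred arrays, 8971 after quantile normalization, 11716 against CMC_A_14d and 9508 to 9770 without one array. Against 30 mg/kg it was 6841 to 7438 without one array, and against piperonyl butoxide 9012 to 9336. Lower calls depended most on the scaling and the filter. With centred arrays they numbered 7863 against vehicle, 5398 against 30 mg/kg, 7959 against piperonyl butoxide and 4327 in the 5 dimmer bins, and 25 calls were opposite to 30 mg/kg for 28 d. Without the dimmest 40% of transcripts lower calls were 3390 against vehicle and 3292 against piperonyl butoxide, with fewer transcripts tested. After quantile normalization the 5 dimmer bins had 784. The cause was not tested. Smaller counts moved with single arrays: 252 to 702 for 30 mg/kg at 14 d, 808 to 2824 at 28 d, 197 to 302 for piperonyl butoxide (279 with only its own set in the fit), and 51 to 223 between the vehicle groups. Same-numbered arrays did not deviate together (correlations -0.02 to 0.07 over the 3 comparisons), so the numbers do not pair animals. With the replicate block the counts were 10846 against vehicle, 8208 against 30 mg/kg, 10299 against piperonyl butoxide and 67 between the vehicle groups. With 3 arrays a group, changes under about 0.33 were mostly not detectable.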
